A study of Homo sapiens with 7 samples.

Results

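Regions occupied by HNF6, GATA6 and NKX6.1 were described at 5 genes of FGF and BMP signalling, FGFR2, DUSP6, SPRY2, BMP4 and BMPR1A, in human embryonic stem cells differentiating toward pancreas. A region belonged to a gene when its midpoint lay within 100 kb of the gene's hg19 span. For DUSP6 the window of 1 Mb on chromosome 12 from 89000001 to 90000000 was added, which was chosen by its count of listed GATA6 regions, the highest of all such windows. These rules gave 130 of the 86081 regions of the 4 peak lists, with 66 in the 5 gene windows and 64 in the rest of the 1 Mb window. The genes, too, were chosen with region counts and scores of these lists known, so these values are given as descriptions.

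Chromatin immunoprecipitation with sequencing was done on CyT49, an established human embryonic stem cell line that carried no named genetic change. HNF6 (ONECUT1), a homeodomain factor of liver and pancreas, was profiled on day 5 (GTE stage, gut tube endoderm) and on day 10 (PE stage, described as pancreatic progenitors). GATA6, a zinc finger factor of endoderm and pancreas, was profiled on day 10 (PE stage), and NKX6.1, a homeodomain factor of pancreatic progenitors and beta cells, on day 13 (PP stage). Each had 1 library, so differences between lists could not be set against replicates and nothing was tested, and 3 input libraries were not analysed here. HNF6 and GATA6 of day 10 differ in factor, antibody and library, and the HNF6 lists of day 5 and day 10 in day and library. NKX6.1 differs from every other list in factor, antibody, day and library, as GATA6 does from HNF6 of day 5. What changes together cannot be told apart. The extraction protocol names an NKX6.1 antibody for every sample, while the antibody label of each peak list gives the factor named here, and the day 5 title gives it as HNF.

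In FGF signalling, secreted ligands bind receptor tyrosine kinases such as FGFR2 and activate the ERK kinase cascade, which in turn induces its own inhibitors. DUSP6, a phosphatase that removes phosphate from ERK, and SPRY2, a Sprouty protein that dampens signalling below the receptor, are such feedback inhibitors. In the developing pancreas, FGF from the mesenchyme acts on FGFR2 of the epithelium and sustains the growth of progenitors. BMP4 is a secreted ligand of the TGF-beta superfamily, and BMPR1A (ALK3) is a type I receptor that passes BMP signals to SMAD proteins. BMP signalling favours liver over pancreas when the foregut is patterned.

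The authors' peak score ranks regions within a list. A score percentile here is the share of regions of the same list with a lower score, with ties set at their mean rank, and scores were not compared between lists. The day 10 HNF6 list held 64919 regions (21.3 per Mb), the listed GATA6 regions numbered 6285 (2.06 per Mb), and the NKX6.1 list held 14627 (4.79 per Mb). The day 5 HNF6 list held 250 regions and none in any of these windows, and 0.347% of all HNF6 regions of day 10 overlap one of them. At 0.0819 regions per Mb, the mean of that list, the 5 gene windows together would hold 0.107 regions. The GATA6 list is partial, with 6285 of 19404 peak numbers (32.4%), and each listed region overlaps an HNF6 region of day 10. A missing GATA6 region is therefore no sign of absent binding, and each GATA6 region below lies at an HNF6 region by the make-up of the list. The lists carry no read depth.

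HNF6 and GATA6 regions lay over the hg19 starts of DUSP6 and BMPR1A. The bases just before the RefSeq starts of these genes are shown, which may not be the same starts. RefSeq gives them on GRCh38.p14, with chr12:89352502-89352751 (minus strand) for DUSP6 and chr10:86755513-86755762 (plus strand) for BMPR1A, both printed 5′ to 3′ along the gene and ending at the base before the start.
DUSP6: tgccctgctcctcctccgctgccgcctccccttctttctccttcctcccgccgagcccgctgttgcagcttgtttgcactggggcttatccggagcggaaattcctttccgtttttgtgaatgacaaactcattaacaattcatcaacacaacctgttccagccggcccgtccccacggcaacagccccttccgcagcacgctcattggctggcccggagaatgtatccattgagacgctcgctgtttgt
BMPR1A: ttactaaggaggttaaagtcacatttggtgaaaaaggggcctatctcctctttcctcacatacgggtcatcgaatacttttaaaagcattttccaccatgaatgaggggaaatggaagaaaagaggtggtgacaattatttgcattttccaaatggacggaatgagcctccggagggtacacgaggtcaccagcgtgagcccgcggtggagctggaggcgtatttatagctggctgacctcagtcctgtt
BMPR1A site: cctcgccgctccTTATCTtatgccgctgga
The last line shows 30 bases after the BMPR1A start, at chr10:86755767-86755796, with capitals at TTATCT, which lies 17 to 22 bases into the transcript and is AGATAA on the opposite strand. The letters searched on both strands were ATCAAT for HNF6, AGATAA and TGATAA for GATA factors and TTAATTA for NKX6.1, and no match overlapped another. The 250 bases before each of these RefSeq starts held no match, hence no capitals. The 50 bases after the DUSP6 start held none either. RefSeq promoters of FGFR2, SPRY2 and BMP4 were also searched, and the only matches were 2 of AGATAA in promoter 2 of the 5 of FGFR2. Its place relative to the hg19 start was not tested. The sequences of the HNF6 and GATA6 regions themselves were not searched. Over RefSeq promoters of 300 bases (250 before and 50 after the start, 34943 windows), 6.27% held ATCAAT, 10.4% AGATAA, 7.55% TGATAA and 2.68% TTAATTA, on either strand. The peaks are on hg19 and were not moved between builds. The DUSP6 span used here is 6040 bp against 5267 bp in RefSeq, and that of BMPR1A is 168550 bp against 177082 bp, so the starts may differ. Whether the printed bases lie inside the regions was not tested.

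The 5 genes differed widely in HNF6 occupancy on day 10. The DUSP6 window held 17 regions in 206 kb (82.5 per Mb), the FGFR2 window 16 in 320.1 kb (49.98 per Mb) and the SPRY2 window 7 in 205 kb (34.2 per Mb). BMPR1A had 10 in 369 kb (27.1 per Mb), close to the mean of the list, and BMP4 had 1 in 207 kb (4.83 per Mb). FGFR2, DUSP6, SPRY2 and BMPR1A thus stood above the mean density of the list (21.3 per Mb), and BMP4 stood below it. At the mean density the SPRY2 window would hold 4.36 regions and the BMP4 window 4.40. These are single loci chosen with their counts known, and they do not describe the FGF and BMP pathways. The DUSP6 window also lies inside the 1 Mb window chosen by its GATA6 count.

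**Figure D1:**
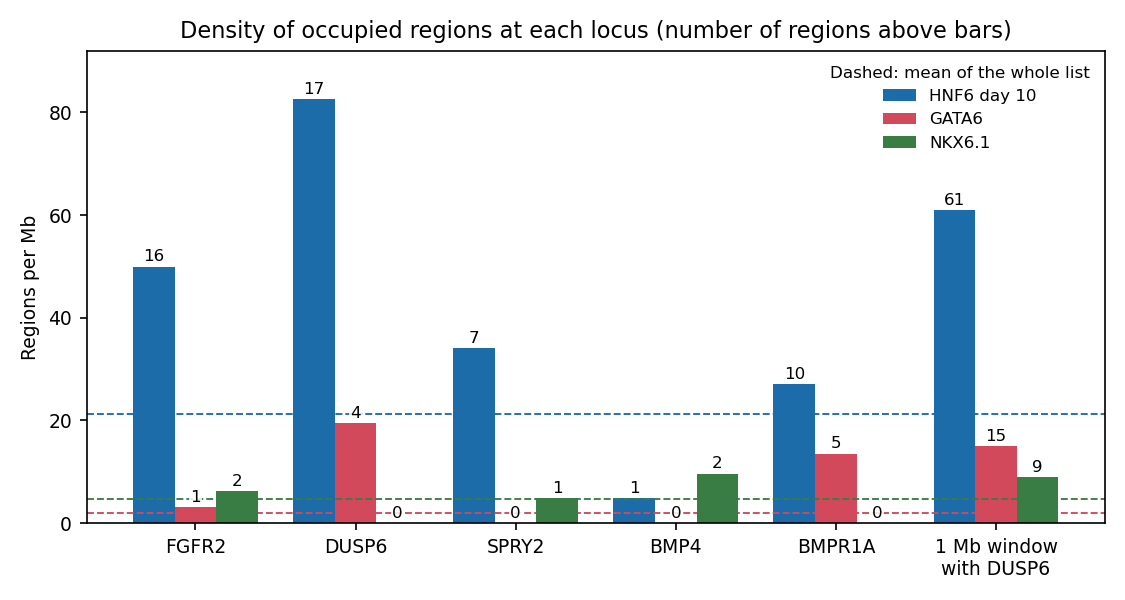
Regions per Mb (vertical axis) in each gene window and in the 1 Mb window with DUSP6, for HNF6 on day 10, GATA6 and NKX6.1, with the number of regions above each bar and the mean of each whole list as a dashed line. HNF6 is densest at DUSP6 (17 regions) and sparsest at BMP4 (1 region), and GATA6 is found at FGFR2, DUSP6 and BMPR1A.

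In the 5 gene windows together, 51 HNF6 regions of day 10, 10 GATA6 regions and 5 NKX6.1 regions were listed. The HNF6 regions were of ordinary strength, with a median score of 78 against 79 over the list, and 3 of 51 lay above the score percentile 90, where 10% of the whole list lies. GATA6 overlapped 9 of the 51 HNF6 regions, or 17.6% (Wilson 95% interval 9.57 to 30.3), against 9.66% of all HNF6 regions. The interval reaches below the share of the whole list, and it covers counting error only. The GATA6 regions themselves ranked low, with a median score percentile of 39.5, and 2 of the 10 were above the median of their list. NKX6.1 overlapped 0 of the 51 HNF6 regions (a count of 0 allows up to 5.88%), against 3.2% in the whole list. None of the 5 NKX6.1 regions touched an HNF6 region (a count of 0 allows up to 60%), against 14.3% that do in the whole NKX6.1 list. These limits lie above the shares of the whole lists, so the counts of 0 are not read as a lack of shared sites. No region of the 5 gene windows held all 3 factors, which 1.15% of all HNF6 regions do.

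**Figure D2:**
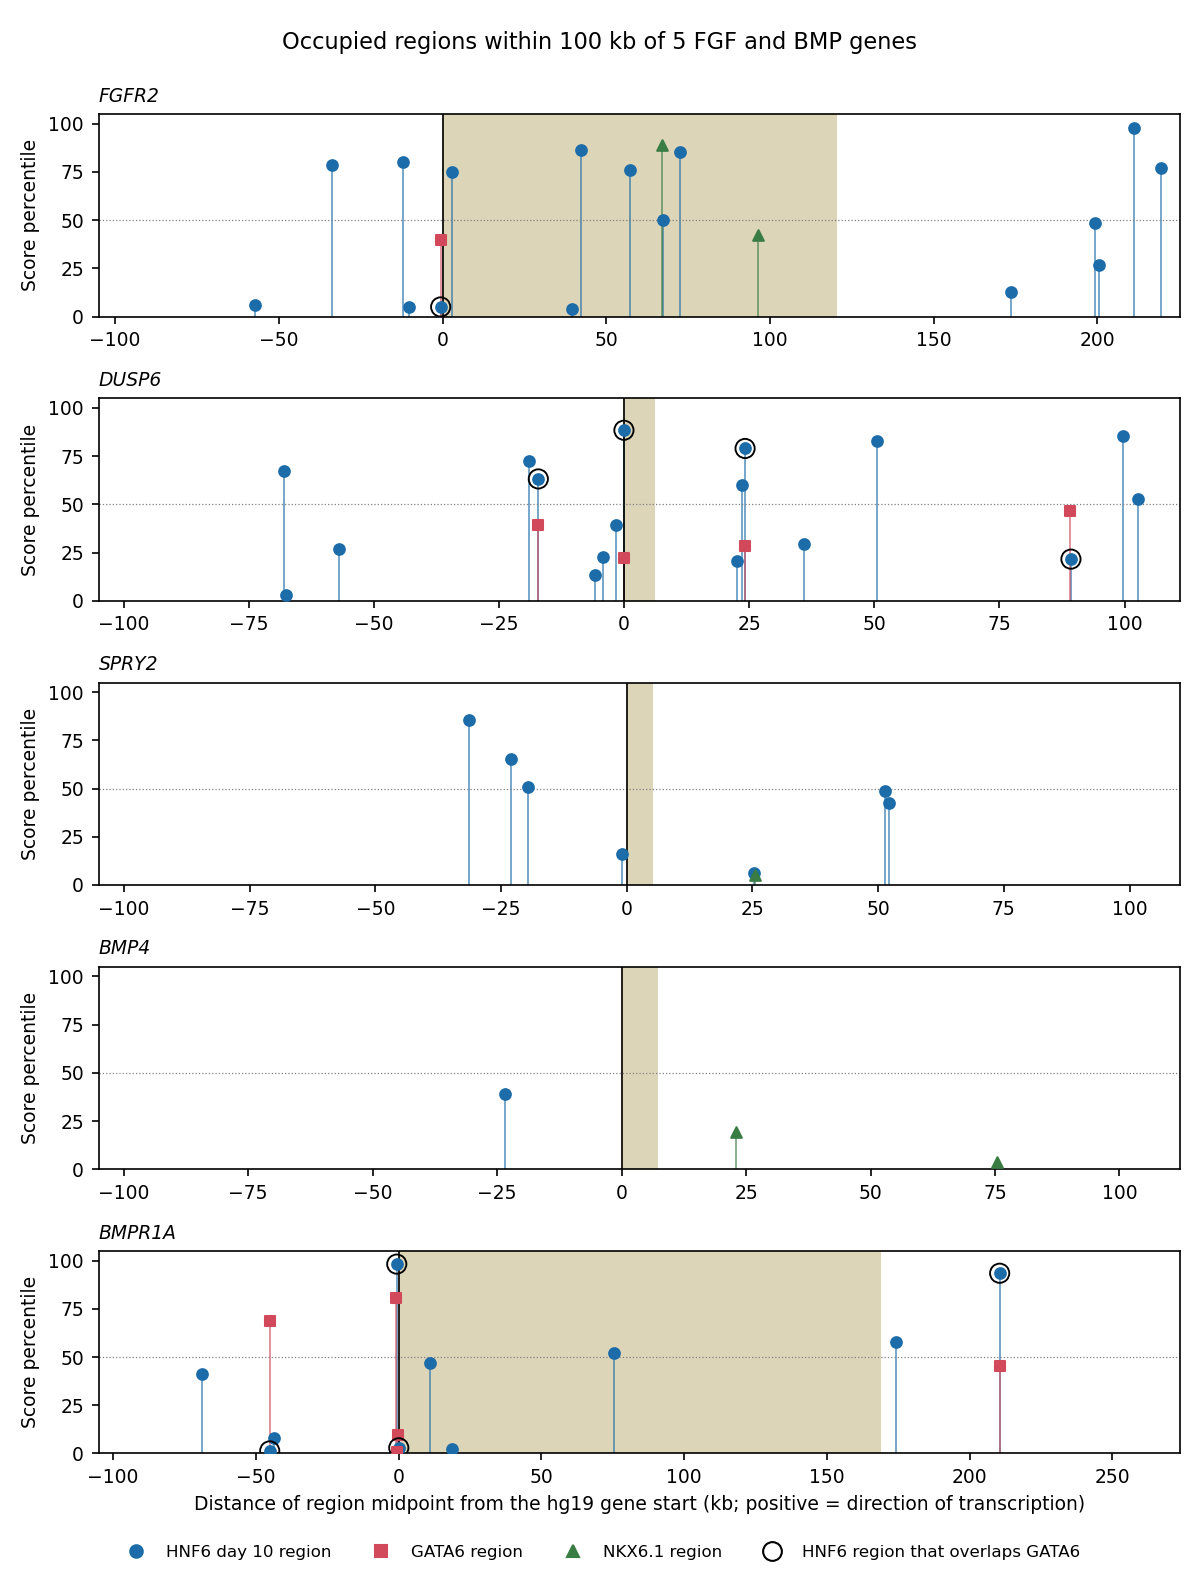
Each panel shows one gene, with the midpoint distance from its hg19 start in kb on the horizontal axis and the score percentile within the region's own list on the vertical axis. Shading marks the gene span, the dotted line percentile 50, and black rings the HNF6 regions of day 10 that overlap a GATA6 region, which lie at or near the starts of FGFR2, DUSP6 and BMPR1A and at other sites around DUSP6 and BMPR1A.

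FGFR2 (chromosome 10, 123237844 to 123357972, minus strand) carried HNF6 throughout its locus. Of its 16 HNF6 regions, 6 lay inside the gene, 5 upstream and 5 downstream, and 8 were above the median score of the list. The strongest, at 123146295 to 123147121, had a score of 1128 (percentile 98.0), was 827 bp wide and lay 91.1 kb beyond the 3′ end of the gene. The next, at 123315564 to 123315938 (score 303, percentile 86.5) and at 123285414 to 123285689 (score 281, percentile 85.5), lay inside the gene, 42.2 and 72.4 kb from its start. Upstream of the gene, the highest scores were 208 (percentile 80.0) at 12.02 kb and 196 (percentile 78.7) at 33.6 kb from the start. High scores were thus found behind, inside and upstream of the gene. The HNF6 region nearest to the start, at 123358445 to 123358623, lay 0.562 kb upstream and was among the weakest of the list (score 25, percentile 4.98).

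That weak HNF6 region was the only one at FGFR2 with GATA6. The GATA6 region, at 123358471 to 123358699, had a score of 78 (percentile 39.5), shared 153 bp with it, and lay 0.613 kb upstream of the start. Both NKX6.1 regions of the locus lay inside the gene. The one at 123290873 to 123290993 had a score of 155 (percentile 89.1) and lay 136 bp from an HNF6 region of score 79 (percentile 49.9), without touching it. The other, at 123261450 to 123261537 (score 48, percentile 42.4), was 23.9 kb from the nearest HNF6 region.

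DUSP6 (chromosome 12, 89741009 to 89747048, minus strand) had the densest HNF6 occupancy of the 5 genes. Its 17 regions lay a median of 6.71 kb apart, with 9 upstream, 8 downstream and 0 with a midpoint inside the short gene. The strongest, at 89746865 to 89747299, spanned the start, with its midpoint 0.034 kb from it (score 348, percentile 88.5). The next were at 89647269 to 89647593 (score 280, percentile 85.3) and at 89696298 to 89696590 (score 241, percentile 82.8), 99.6 and 50.6 kb from the start in the direction of transcription. In contrast to FGFR2, the highest HNF6 score of the DUSP6 window was at the start of the gene. A further 3 HNF6 regions lay 1.67, 4.17 and 5.79 kb upstream, with low scores of 63, 45 and 35.

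GATA6 was listed at 4 sites around DUSP6, and all 4 were below the median score of the GATA6 list. The region over the start, at 89746733 to 89747238, had a score of 52 (percentile 21.98) and shared 374 bp with the strongest HNF6 region. The others were at 89657809 to 89658028 (score 95, percentile 46.4), at 89764196 to 89764398 (score 78, percentile 39.5) and at 89722727 to 89722951 (score 60, percentile 28.6). The last 2 lay wholly within their HNF6 regions, whereas the first shared only 55 bp with an HNF6 region of score 44. The HNF6 regions with GATA6 had score percentiles of 21.6, 63.2, 79.0 and 88.5, and thus spanned most of the range of the 13 without it (2.93 to 85.3). No NKX6.1 region lay within 100 kb, and the nearest was 118 kb from the gene.

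SPRY2 (chromosome 13, 80910112 to 80915086, minus strand) had HNF6 but no listed GATA6. The strongest of its 7 HNF6 regions, at 80946214 to 80946599 (score 287, percentile 85.7), lay 31.3 kb upstream. It was followed by 80937850 to 80938275 (score 120, percentile 65.5) and 80934561 to 80934895 (score 80, percentile 50.7), 22.98 and 19.6 kb upstream. These 3 regions formed a group upstream of the gene and were the only ones of the locus above the median of the list. The region nearest to the start, 0.868 kb upstream at 80915790 to 80916117, was weak (score 39, percentile 16.2). The single NKX6.1 region, at 80889623 to 80889698, was among the weakest of its list (score 18, percentile 5.09). It lay 71 bp from an HNF6 region that was also low in its own list (score 27, percentile 6.16).

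BMP4 (chromosome 14, 54416455 to 54423554, minus strand) had few regions, with 1 of HNF6 and 2 of NKX6.1. The HNF6 region, at 54446820 to 54447042 (score 63, percentile 39.2), lay 23.4 kb upstream, and no GATA6 region was listed. Both NKX6.1 regions, at 54400573 to 54400652 (score 30, percentile 19.1) and 54348048 to 54348144 (score 17, percentile 3.66), lay downstream, 22.9 and 75.5 kb from the start. They were 46.2 and 98.7 kb from the HNF6 region nearest to each. At 9.66 per Mb against 4.79 over the list, NKX6.1 was denser here than at the other 4 genes, but on a count of 2, and both regions were weak.

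BMPR1A (chromosome 10, 88516396 to 88684945, plus strand) had a strong HNF6 region at its start, with GATA6. The region at 88515404 to 88516154 had a score of 1192 (percentile 98.2), the highest HNF6 score in the 5 gene windows, was 751 bp wide and overlapped 2 GATA6 regions. One of them, at 88515373 to 88515738, had the highest GATA6 score of the 5 windows (score 289, percentile 80.7), and the other, at 88515833 to 88516071, was one of the weakest of its list (score 15, percentile 0.501). A second HNF6 region, at 88516374 to 88516592, spanned the start itself (score 22, percentile 2.93) and overlapped another GATA6 region, at 88516267 to 88516475 (score 35, percentile 9.58). BMPR1A thus had 3 GATA6 and 2 HNF6 regions within 2 kb of its start, with a large spread of scores.

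Away from the start, 2 more HNF6 regions of BMPR1A overlapped GATA6. The region at 88726675 to 88727100 had a score of 553 (percentile 93.5) and lay 41.9 kb beyond the end of the gene. Its GATA6 partner, at 88726770 to 88727000 (score 92, percentile 45.1), lay wholly within it, with midpoints 2.5 bp apart. In the RefSeq gene order MMRN2, SNCG and ADIRF follow BMPR1A, and no region was assigned to any of these genes or to BMPR1A by this distance. The other pair lay 45.1 kb upstream, with a GATA6 region at 88471035 to 88471633 (score 182, percentile 68.9) over an HNF6 region of score 17 (percentile 1.32). The third strongest HNF6 region, at 88690624 to 88690814 (score 97, percentile 57.6), had no GATA6. In all, 4 of the 10 HNF6 regions of BMPR1A, or 40% (16.8 to 68.7), overlapped GATA6, against 9.66% of all HNF6 regions. The interval covers counting error only and takes the regions as independent, whereas 2 of the 4 lay within 2 kb of the same start. The gene was also chosen with its counts known, so the 40% is a description. None of the HNF6 regions without GATA6 was above percentile 57.6. No NKX6.1 region was listed within 100 kb.

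**Figure D3:**
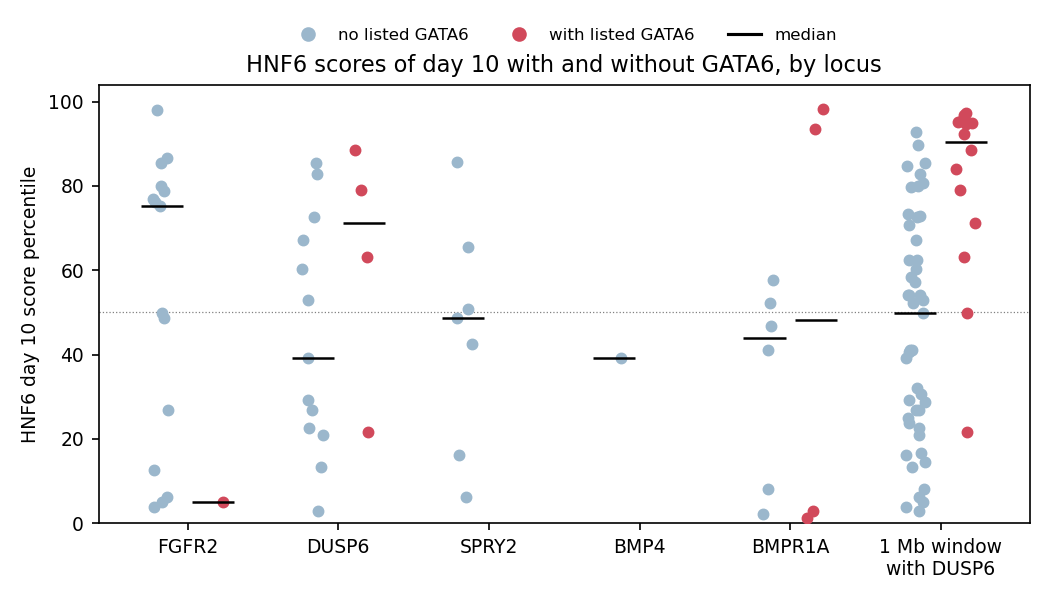
Score percentile of each HNF6 region of day 10 (vertical axis) by locus, without a listed GATA6 region (blue) and with one (red), with medians as bars and the dotted line at percentile 50. In the 1 Mb window with DUSP6 the 14 regions with GATA6 have a median percentile of 90.3 and the 47 others 49.9, whereas at BMPR1A the 4 with GATA6 include both very high and very low scores.

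The limit of 100 kb left out some strong regions. The GATA6 region nearest to FGFR2 outside the limit, at 123096882 to 123097293, lay 141 kb from the gene and had a score of 547 (percentile 91.1). An NKX6.1 region at 123096970 to 123097290 lay within it and had a score of 872 (percentile 99.9), above any NKX6.1 region of the 5 windows. At SPRY2 the nearest HNF6 region outside, 121 kb away, had a score of 537 (percentile 93.2), while the farthest inside had a score of 68 (percentile 42.5) at 47.1 kb. At FGFR2 the HNF6 region just inside had a score of 183 at 99.1 kb, and that just outside 38 at 109 kb. At DUSP6 the scores were 87 at 96.7 kb and 49 at 107 kb, at BMPR1A 67 at 68.7 kb and 152 at 157 kb, and at BMP4 63 at 23.4 kb and 95 at 162 kb. The GATA6 region nearest to BMP4 was strong (score 1260, percentile 98.1) but 269 kb away.

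The 1 Mb window with DUSP6 held 15 GATA6 regions, which is the count it was chosen for. No other of the 3061 windows of 1 Mb held as many (0.0327% counting this one), the next held 14, and the median was 2. HNF6 of day 10 was also dense there, with 61 regions against a median of 21, and 11 windows (0.359%), this one included, held at least 61. Because each listed GATA6 region overlaps HNF6, the HNF6 count is not independent of the choice. Those 11 windows held 3 to 15 GATA6 regions, with a median of 8. The NKX6.1 count of 9 was less unusual, and 13.6% of windows held at least as many. Between the first and the last listed GATA6 region of the window, 7 peak numbers were not listed and were not analysed here.

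HNF6 and GATA6 were denser within 100 kb of DUSP6 than in the rest of the window. HNF6 had 82.5 regions per Mb within the limit and 55.4 outside it, and GATA6 had 19.4 and 13.9. The GATA6 values rest on 4 regions within the limit and 11 outside it, in a window chosen by its GATA6 count. The difference was not tested. The part outside covers 794 kb and held 44 of the 61 HNF6 regions, 11 of the 15 GATA6 regions and all 9 NKX6.1 regions. In the RefSeq gene order KITLG precedes DUSP6 and POC1B follows it, and no region was assigned to them. The 5 strongest HNF6 regions were at 89032994 to 89033568 (score 972, percentile 97.4), 89983519 to 89983956 (885, percentile 96.9), 89466604 to 89467554 (794, percentile 96.2), 89177723 to 89178176 (679, percentile 95.2) and 89326439 to 89327089 (658, percentile 94.96). All 5 overlapped GATA6, in a window chosen by its GATA6 count. Over the whole list, 2299 of the 6498 HNF6 regions above percentile 90 overlapped it. All 5 also lay more than 100 kb from DUSP6, as does most of the window, at 237 to 714 kb from its start.

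**Figure D4:**
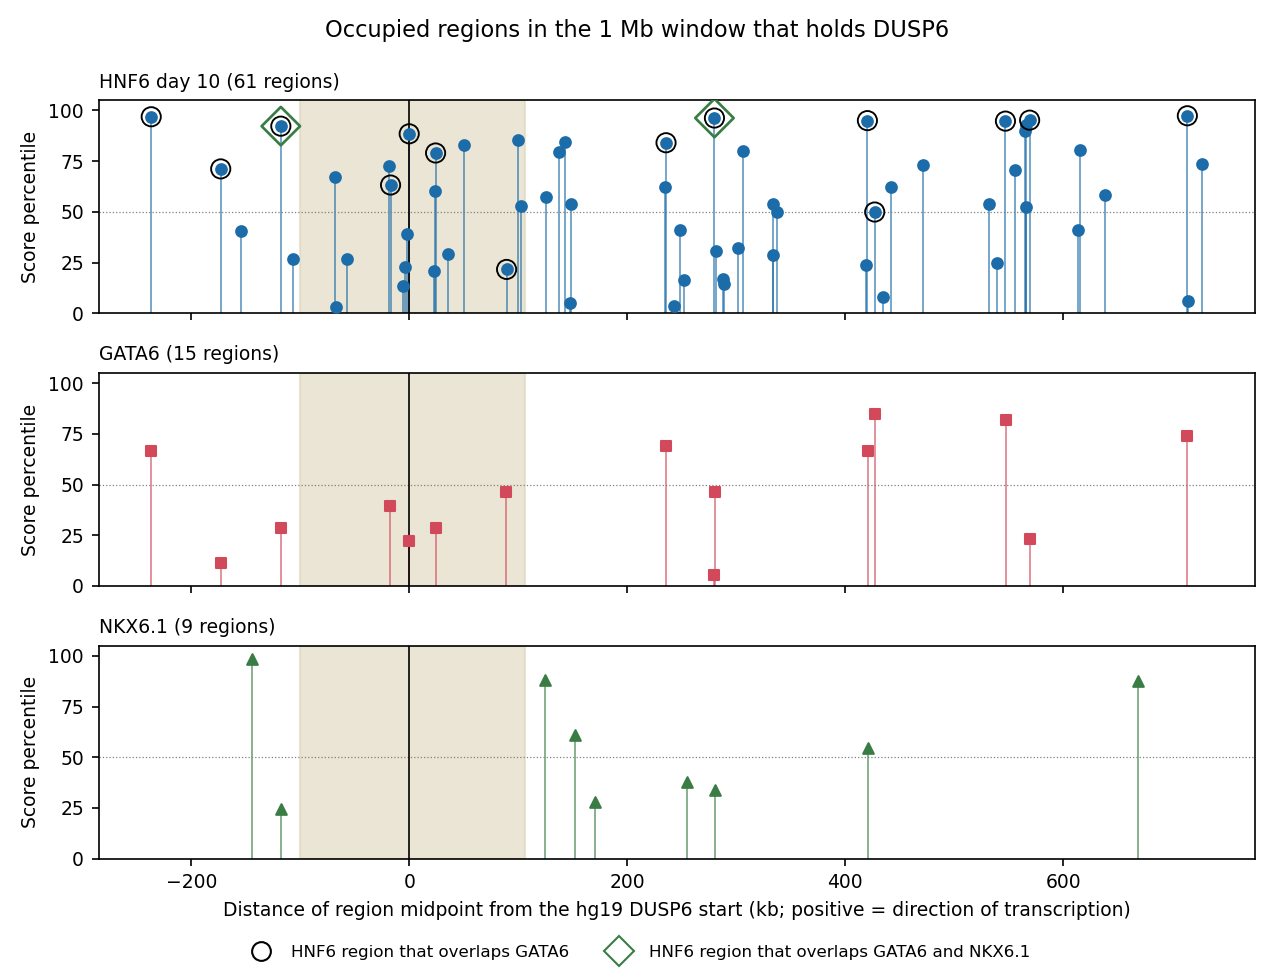
Regions of HNF6 on day 10, GATA6 and NKX6.1 in the 1 Mb window, with the midpoint distance from the hg19 start of DUSP6 in kb (horizontal axis) and the score percentile within each list (vertical axis). Shading marks DUSP6 with 100 kb on either side, rings the 14 HNF6 regions with GATA6, and diamonds the 2 that also overlap NKX6.1, one on each side of the gene.

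In the 1 Mb window GATA6 overlapped 14 of 61 HNF6 regions, or 22.95% (14.2 to 34.9), against 9.66% of all HNF6 regions, a share raised by the choice of the window. The 14 had a median HNF6 score of 413 and the 47 others one of 79. Over the whole list the medians were 235 and 77, so a gap of the same direction is general. Regions with GATA6 were also wider, with medians of 446 and 258 bp in the window and 360 and 254 bp over the whole list. Overlap was counted from 1 bp, and the part of region width in the score gap was not tested. Of the 14, 7 were above percentile 90 of the HNF6 list, as are 36.7% of all HNF6 regions with GATA6. Of the 47 others, 1 was, as are 7.16% of all those without GATA6. The window thus showed the same direction as the whole list.

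The strongest GATA6 regions of the window did not sit at the strongest HNF6 regions in every case. The highest GATA6 score, 354 (percentile 84.7) at 89319738 to 89320340, lay over an HNF6 region of score 79 (percentile 49.9), with which it shared 550 bp. Next came 89199902 to 89200268 (score 304, percentile 81.8), 89033181 to 89033501 (score 219, percentile 73.8) and 89511375 to 89511645 (score 182, percentile 68.9). The regions at 89326362 to 89326785 and 89983562 to 89983873 tied for the fifth rank, each with a score of 170 (percentile 66.7). The GATA6 regions outside the DUSP6 limit had a median score percentile of 66.7, and the 4 within it one of 34.0.

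GATA6 and NKX6.1 were both found at 2 of the 61 HNF6 regions of the window, or 3.28% (0.904 to 11.2). Over all HNF6 regions the share was 1.15%, and the share here was raised by the choice of the window by GATA6 count. HNF6 regions with NKX6.1, whether or not with GATA6, were the same 2 of 61, against 3.2% of all HNF6 regions. The 2 regions lay one on each side of DUSP6. The region at 89466604 to 89467554, 280 kb from the start in the direction of transcription, was the widest HNF6 region of the window (951 bp, score 794). It overlapped GATA6 regions of score 96 and 27 and an NKX6.1 region at 89466724 to 89466867 (score 41, percentile 33.7), which lay wholly within it. The region at 89864547 to 89865139, 118 kb upstream, had a score of 478 (percentile 92.2). It overlapped a GATA6 region of score 60 (percentile 28.6) and an NKX6.1 region of score 34 (percentile 24.6) at 89864720 to 89864839. At both sites HNF6 was above percentile 90 of its list, and GATA6 and NKX6.1 were below the median of theirs.

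The 5 strongest NKX6.1 regions of the window overlapped no HNF6 region, as most regions of the NKX6.1 list do not. The strongest, at 89891194 to 89891524, had a score of 436 (percentile 98.7), lay 144 kb upstream of DUSP6 and was 9.50 kb from the nearest HNF6 region. The next 4, at 89622223 to 89622353 (score 146, percentile 88.2), 89078862 to 89078963 (score 142, percentile 87.5), 89595014 to 89595119 (score 65, percentile 61.1) and 89326084 to 89326159 (score 58, percentile 54.6), lay 0.222, 29.6, 3.55 and 0.279 kb from the nearest HNF6 region. The 2 NKX6.1 regions of the window that overlapped HNF6 were those at the sites of all 3 factors. Over all windows together, 2 of 14 NKX6.1 regions, or 14.3% (4.01 to 39.9), overlapped HNF6, which equals the share of the whole list to 3 digits. The same 2 of 14 overlapped GATA6, against 5.18% of all NKX6.1 regions, and 2 of the 21 GATA6 regions overlapped NKX6.1, against 11.8% of all listed GATA6 regions.

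Some NKX6.1 regions lay beside HNF6 regions of day 10 without touching them, a pattern noted after the values were seen. Of the 12 NKX6.1 regions in all windows that overlapped no HNF6 region, 4 lay at most 300 bp from one, against 4.11% of all NKX6.1 regions without overlap. They were 71 bp away at SPRY2, 136 bp inside FGFR2, and 222 and 279 bp in the 1 Mb window with DUSP6. The distance of 300 bp was set with these values known, and NKX6.1 regions are narrow (median width 99 bp against 261 bp for HNF6 on day 10), so whether a pair counts as shared depends on the overlap rule. HNF6 of day 10 was also denser in the windows of these 4 than over the list (21.3 per Mb). It had 34.2 regions per Mb at SPRY2, 49.98 at FGFR2 and 61 in the 1 Mb window. The parts of region width and of HNF6 density in this pattern were not tested.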

How the data were processed

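Peak lists of 4 libraries, 1 per factor and day, were used. Bowtie2 2.3.4.1, MACS2 2.1.1.20160309 and hg19 are named, per the submitters' processing notes, without roles or parameters. Per peak, the authors deposited a position, a name and a score, with no header, and neither how the score was made nor how inputs were used was stated. Rows with the same coordinates became 1 region that took the highest score. Midpoints stood in for summits, and positions are 1-based on hg19.

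Gene spans on hg19 were those of the rule that defines the loci, and strands came from RefSeq. Overlap was counted from 1 bp (Python 3.11.15, numpy 2.4.6, pandas 2.3.3), and overlap counts of 4 pairs of lists equalled those of bedtools 2.31.1. Wilson 95% intervals (statsmodels 0.14.6) and the limit that a count of 0 allows (3 counts) cover counting error only. Mean density used a genome of 3051.7 Mb, the farthest positions in any list. The code was tested on simulated data. Depth is unknown, and a deeper library lists more regions.

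The members and lists were chosen with earlier results of these data known. The rule for named regions takes, per gene window, the 3 highest scores of each list, regions of all 3 factors and the region of each list nearest to the start, and in the 1 Mb window the 5 highest of each list. Some further regions were named after their values were seen. Alternatives were limits of 50 and 200 kb, midpoints within 200 bp, overlap covering 50% of the shorter region, regions at or above the median score, and each row counted. Exons, introns and other FGF and BMP pathway genes were not analysed here, because no hg19 annotation was used.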

Additional observations from a re-analysis of the deposited data

How the results depend on the processing

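With 1 library per group, no replicate could be left out. No paired analysis was possible because each group has 1 library and the result comes from no test. With a limit of 200 kb from the gene, the 5 gene windows held 85 HNF6 regions of day 10 (51 as reported) and 15 NKX6.1 regions (5 as reported). In that setting 3 HNF6 regions overlapped NKX6.1 and 2 overlapped both GATA6 and NKX6.1, where 0 did within 100 kb. The counts of 0 thus hold for that limit and not for the wider one. Among regions at or above the median score of their list, the 5 gene windows held 25 HNF6, 2 GATA6 and 1 NKX6.1 regions, and the number of HNF6 regions with GATA6 was 1 in place of 9. In the same setting the 1 Mb window held 37 HNF6, 6 GATA6 and 5 NKX6.1 regions and 0 with all 3 factors. These fall because weak regions were removed. With midpoints at most 200 bp apart, 1 HNF6 region of the 5 gene windows was paired with NKX6.1, although the regions do not touch, and 1 region of the 1 Mb window held all 3 factors in place of 2. The limit of 50 kb, overlap of 50% of the shorter region and the counting of each row moved no count by more than 1.5 times. HNF6 regions of day 5 stayed at 0 under all alternatives run. The lists give no depth, so weak regions cannot be told apart from noise by these files.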
